A study of Mus musculus with 6 samples.

Results

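Collagens, laminins, integrins and the genes of vascular mural cells were compared between oligodendrocytes isolated from WT and Qk-KO mouse brain. The genes were all protein-coding rows of the deposited table named as a collagen chain or a laminin chain. To these were added 4 integrin subunits, 7 mural cell genes, 3 small leucine-rich proteoglycans and 7 other matrix proteins. Kcnj8, Cspg4 and Ndufa4l2, which also mark mural cells, were left out of the members by the selection rule and are used below only as markers. The rule found 76 genes among 46983 features, of which 21930 were protein-coding. It used names and no measured value, but it was chosen with earlier results of these data known.

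The study sequenced RNA of freshly isolated, uncultured oligodendrocytes from 8-week-old mice of an FvB/C57BL6 hybrid strain, with 3 WT and 3 Qk-KO libraries. Qk-KO mice carried Plp-CreERT2, a tamoxifen-activated Cre recombinase under the promoter of the myelin gene Plp, and the floxed QKLoxP/LoxP alleles, and their genotype label is Qk-/-. Both groups received tamoxifen at 8 weeks, and brains were collected after a further 4 days. Which alleles the WT mice carried is not in the labels. Nor do they tie each library to its own animal, so a p-value here reflects only how far the libraries spread, and that spread may be technical. Cre acts in cells that use the Plp promoter, and the labels name no mural or endothelial deletion.

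Qk encodes Quaking, an RNA-binding protein of oligodendrocytes that controls splicing and RNA stability. Its regularized log2 values in replicates 1, 2 and 3 were 15.41, 15.67 and 15.31 for WT and 16.10, 15.62 and 15.30 for Qk-KO, so the groups overlapped, and the change was 0.21 ± 0.25 (adjusted p = 0.567). The table holds 1 value per gene and not per exon, so this value does not check the deletion of the floxed part.

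The basement membrane of brain vessels is a sheet of laminin heterotrimers and collagen IV, linked by nidogens and perlecan and laid down by endothelial cells, mural cells and astrocyte endfeet. Mural cells, the pericytes and smooth muscle cells of the vessel wall, sit inside this sheet and depend on PDGF-B signals received through the receptor Pdgfrb. Integrins are paired alpha and beta subunits through which cells hold on to laminins and collagens. Fibrillar collagens and small leucine-rich proteoglycans mark the fibroblasts of the meninges and of large vessels. Mature oligodendrocytes are not known as a main source of most of these proteins. The values describe RNA of the whole isolated population.

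Of the 76 genes, 66 had a mean normalized count of at least 20 over the 6 libraries and were tested with limma. In Qk-KO 34 of these fell and 3 rose at an adjusted p under 0.05, while 29 did not pass. Thus 51.5% of the tested members fell, against 14.8% of the 15153 features tested, and 4.55% rose, against 13.8% (28.6% of features in either direction). The median change was -0.64 on the log2 scale, against 0.03 over all tested features. In 39 of the 66 every Qk-KO library lay below every WT library, against 21.8% of all features, and in 4 every Qk-KO library lay above, against 24.5% (46.3% in either direction). Of the 34 that fell, 16 had changes of -1 or below, and the largest fall was that of Col1a1, at 3.68-fold. By the authors' deposited table, among the 72 members with an adjusted p, 36 fell and 4 rose, beside 14.2% and 13.7% of all features (27.9% in either direction). All 37 members called here were called there with the same sign.

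**Figure D1:**
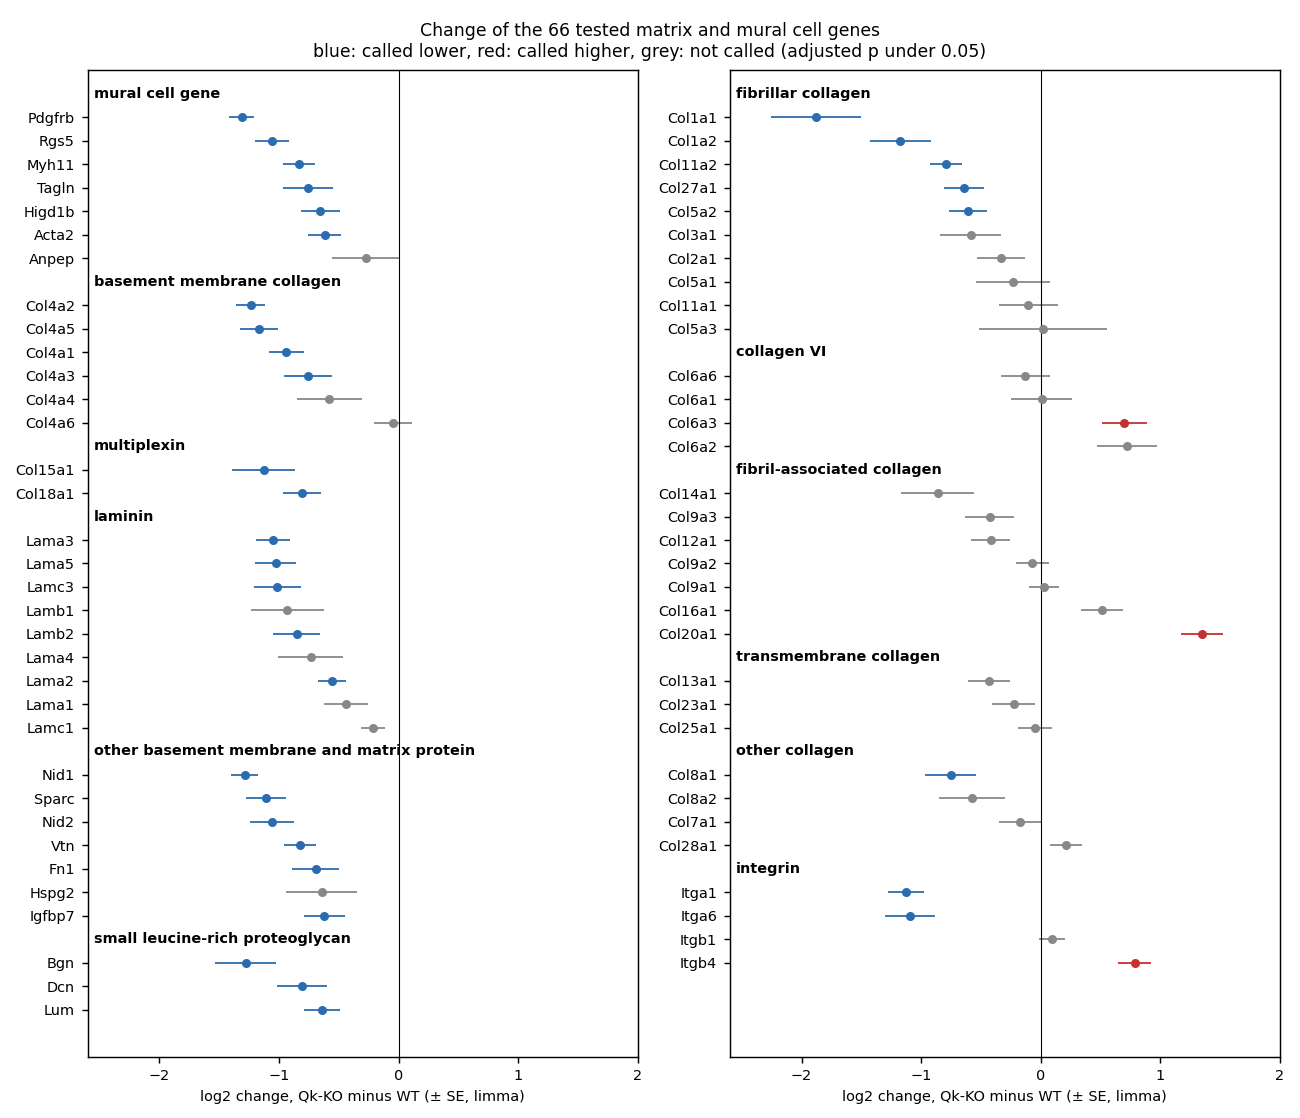
Change of each of the 66 tested members, Qk-KO minus WT on the log2 scale, by role. Points are limma estimates from 3 libraries per group and lines are ± 1 SE. Blue points fell, red points rose and grey points did not pass an adjusted p of 0.05. The 3 red points are Col20a1, Itgb4 and Col6a3. On values scaled by library size alone, ribosomal RNA included, all points move up together. There 21 of the 34 blue points lie above 0.

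The libraries differed in make-up, and this touches every value below. Ribosomal RNA took 59.8% to 64.8% of the signal in the 3 WT libraries and Qk-KO replicate 1, but 2.23% and 1.88% in Qk-KO replicates 2 and 3. Those last libraries held an estimated 77100000 and 70000000 non-ribosomal reads, against 8700000 to 13100000 in the others. A difference in library type and the genotype cannot be told apart for these 2 libraries, so Qk-KO replicate 1 was also compared alone with the 3 WT libraries. In that comparison 35 members fell and 3 rose, against 9.37% and 6.17% of all features, with a median of -0.81 and 15.5% of all features called in either direction. They included 31 of the 34 that fell and 2 of the 3 that rose with all libraries. The lone library is assumed there to vary like the WT group.

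Changes are stated relative to the authors' DESeq2 scaling, and the zero of that scale mattered. Library size here was the summed signal of all features, ribosomal RNA included, so scaling by it also carries the difference in ribosomal share. That share was 59.8% to 64.8% in WT and Qk-KO replicate 1, but 2.23% and 1.88% in Qk-KO replicates 2 and 3. A library size without ribosomal RNA was not tested. When values were scaled by library size alone the median over all features moved from 0.03 to 1.09. That of the members moved from -0.64 to 0.42. The members lay -0.67 from the median feature under either scaling, a distance that could not differ. Such scaling shifts every feature of a library by the same amount. With that scaling no member fell and 5 rose, so 100% of the member calls were higher, against 8.11% with the authors' scaling. Over all features 97.3% of the calls were higher, against 48.2%. Of the 34 members that fell, 21 had positive values there, and these are named group by group. The count that fell also depended on single libraries. It was 21 when WT replicate 1 was left out, 21 when WT replicate 3 was, and 22 when Qk-KO replicate 2 was. The median member stood at -0.60, -0.62 and -0.63 in these fits, against -0.64. The number of all features called moved too when 1 library was left out, over the range given in the closing section. Of the 37 called members, 22 kept the call whichever library was left out.

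Values are regularized log2 values as the authors deposited them, listed in the order of replicates 1, 2 and 3. Changes are Qk-KO minus WT on the log2 scale, each ± its limma SE, and adjusted p-values are Benjamini-Hochberg values over all 15153 features. The replicate block named below adds the replicate number to the fit as a term. No label ties same-numbered libraries of the groups together, so a call gained with it is no support for a change. Bulk RNA cannot tell fewer cells of a type from less RNA per cell. Levels are compared between genes only as back-transformed values per kilobase of exon. Counts of genes that fell or rose in each group below are to be read against 14.8% and 13.8% of all tested features. Counts of genes with groups apart are to be read against 21.8% lower and 24.5% higher.

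Collagen IV, the network-forming collagen of basement membranes, has 6 chains that are transcribed from 3 head-to-head gene pairs. The start sites of the Col4a1 and Col4a2 pair lie 21 bases apart on opposite strands of chromosome 8, so that a single stretch of DNA holds both. It is shown because both genes fell. Its 22 bases are annotated as exon of both genes, so it is an overlap of their ends and not a gap between them. The stretch from one RefSeq start site to the other (GRCm38.p6, chr8:11312805-11312826, plus strand) reads 5′ to 3′ as follows, with the GC box GGGCGG, a motif read on both strands (CCGCCC on the other), in capitals.
Col4a1 and Col4a2: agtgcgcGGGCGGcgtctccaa
The 300-base RefSeq windows around the starts, from 250 bases before to 50 after, held 74.0% GC for Col4a1 and 73.7% for Col4a2, against a median of 52.7% over 32851 windows. A GC box was in both and in 35.7% of all windows. Windows that overlap another on the opposite strand made up 10.8% of the total.

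The other pair on which the results turn, Col4a5 and Col4a6, lies head to head on the X chromosome with RefSeq start sites 1343 bases apart. The bases from 190 to 41 before each start are shown because these genes are neighbours of which Col4a5 fell and Col4a6 did not pass. The Col4a5 stretch is chrX:141475229-141475378 on the plus strand, the Col4a6 stretch is chrX:141474117-141474266 on the minus strand, and both are of GRCm38.p6 and outside annotated exons.
Col4a5: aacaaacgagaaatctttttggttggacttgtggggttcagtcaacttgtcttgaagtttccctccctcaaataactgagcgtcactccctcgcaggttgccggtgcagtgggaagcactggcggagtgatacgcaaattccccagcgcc
Col4a6: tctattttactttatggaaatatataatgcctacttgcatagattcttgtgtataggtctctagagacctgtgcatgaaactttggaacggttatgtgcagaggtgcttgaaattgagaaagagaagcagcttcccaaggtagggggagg
The Col4a5 stretch held 52.0% GC and the Col4a6 stretch 40.7%. Neither stretch held a GC box, and 24.0% of the matching stretches of all windows did, so no letters are in capitals. The 300-base windows around these starts, which reach closer to the genes, each held 1 GC box, at 52.7% GC for Col4a5 and 48.3% for Col4a6.

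Of the 6 collagen IV chains 4 fell and none rose, beside 14.8% and 13.8% of all features. The median change was -0.85, although Col4a1 and Col4a3 were above 0 with library size alone. Col4a1 and Col4a2 form the common heterotrimer of all vascular basement membranes. Col4a1 (chromosome 8, 11198423 to 11312826, minus strand, mm10) had values of 11.57, 11.14 and 11.45 for WT and 10.26, 10.47 and 10.61 for Qk-KO. Col4a2 (11312805 to 11449287, plus strand) had values of 11.26, 10.94 and 11.16 for WT and 9.85, 9.84 and 9.95 for Qk-KO. In both, all Qk-KO libraries lay below all WT libraries, and WT replicate 2 was the lowest of the WT group. The change was -0.94 ± 0.15 (adjusted p = 0.00306) for Col4a1, a 1.92-fold fall, and -1.24 ± 0.12 (adjusted p = 0.000349) for Col4a2, a 2.36-fold fall. In Qk-KO replicate 1 alone the changes were -1.12 and -1.27.

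Col4a5, a chain of the rarer collagen IV trimers that is mutated in Alport syndrome, had values of 8.49, 8.78 and 8.605 for WT and 7.22, 7.59 and 7.56 for Qk-KO. Its groups were far apart beside the spread within either, and it fell by 2.24-fold (-1.17 ± 0.16, adjusted p = 0.00166). Col4a6, its neighbour and partner chain in some basement membranes, had values of 5.79, 6.04 and 6.03 for WT and 5.74, 5.91 and 6.06 for Qk-KO, and its groups overlapped (-0.05 ± 0.16, adjusted p = 0.851). Within each library Col4a5 exceeded Col4a6 by 2.70, 2.74 and 2.58 in WT and by 1.48, 1.67 and 1.5 in Qk-KO. Both genes are X-linked, and Xist was low in WT replicate 3 and Qk-KO replicate 2 only, 1 library of each group. Of the Col4a5 values, that of WT replicate 3 lay between the other WT values and that of Qk-KO replicate 2 was the highest of its group. Col4a3 changed by -0.76 ± 0.20 (adjusted p = 0.0254) and its head-to-head neighbour Col4a4, 71 bases away, had a difference of -0.58 ± 0.27 (adjusted p = 0.144), with overlapping groups. Col4a3 lost its call when WT replicate 1 or 3 or else Qk-KO replicate 2 was left out (limma adjusted p = 0.0826, 0.0858 and 0.1003), and also with ribosomal library type as a term (0.136) and in Qk-KO replicate 1 alone (0.142).

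**Figure D2:**
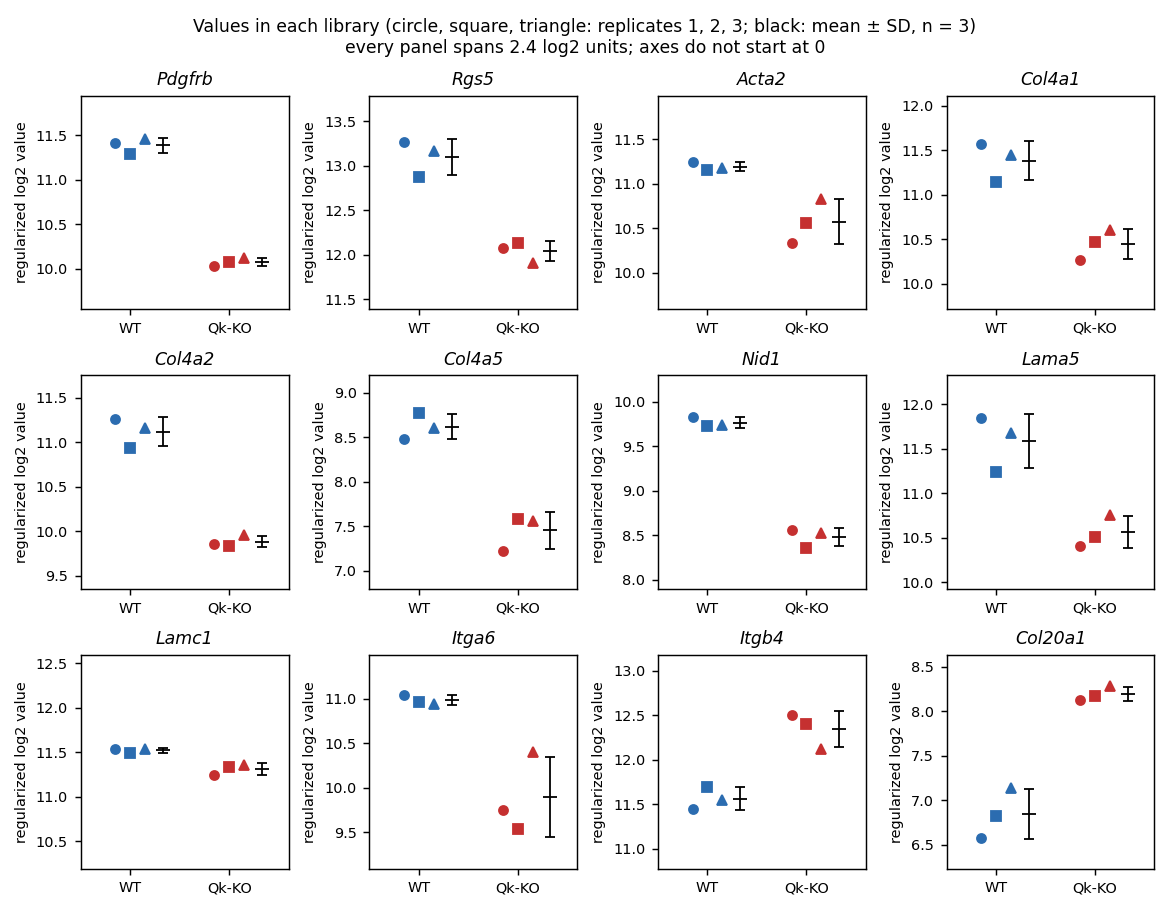
Regularized log2 values of 12 members in each library. Circles, squares and triangles are replicates 1, 2 and 3, blue is WT, red is Qk-KO, and black marks are the mean ± SD of 3 libraries. Every panel spans 2.4 log2 units and axes do not start at 0. The 12 are a selection, with groups apart in every panel, Lamc1 separated by the least, and only Itgb4 and Col20a1 higher in Qk-KO. Of all 66 tested members 39 had groups apart and lower and 4 apart and higher. Under library size alone the differences of Col4a1, Lama5, Acta2 and Lamc1 turn positive.

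The 2 multiplexins, Col15a1 and Col18a1, which are collagen and proteoglycan hybrids of vascular basement membranes, both fell, with Col18a1 above 0 under library size alone. Col18a1, the source of the anti-angiogenic fragment endostatin, had values of 9.38, 9.27 and 9.66 for WT and 8.47, 8.56 and 8.85 for Qk-KO, without overlap, and changed by -0.81 ± 0.16 (adjusted p = 0.00756). Col15a1 had values of 8.49, 7.99 and 8.49 for WT and 6.87, 6.98 and 7.75 for Qk-KO. Its Qk-KO replicate 3 lay closest to the WT range but below it, and the change was -1.13 ± 0.26 (adjusted p = 0.0154). Col15a1 lost its call when WT replicate 1 or 3 or else Qk-KO replicate 2 was left out (limma adjusted p = 0.0629, 0.0635 and 0.0594).

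Laminins are cross-shaped trimers of an alpha, a beta and a gamma chain. Of 11 chains 9 were tested, 5 fell and none rose, beside 14.8% and 13.8% of all features, and the median was -0.85. In 8 of the 9 the groups were apart and lower, against 21.8% of all features. With library size alone all 5 chains that fell were above 0, the largest being Lama2 at 0.50. Among alpha chains, Lama5, the chain of mature endothelial basement membrane, had values of 11.84, 11.24 and 11.68 for WT and 10.41, 10.51 and 10.76 for Qk-KO. It fell by 2.04-fold (-1.03 ± 0.17, adjusted p = 0.00415), with all Qk-KO libraries below all WT libraries. Lama2, the alpha chain of the laminin laid down by astrocytes and mural cells, had values of 10.997, 11.13 and 11.15 for WT and 10.45, 10.44 and 10.72 for Qk-KO. All Qk-KO values lay below the WT range, with replicate 3 nearest to it, and the change was -0.56 ± 0.12 (adjusted p = 0.0114). Lama2 lost its call when WT replicate 3 or else Qk-KO replicate 2 was left out (limma adjusted p = 0.0525 and 0.0566). Lama3, an alpha chain best known from epithelia, had values of 9.07, 8.83 and 8.77 for WT and 7.99, 7.75 and 7.77 for Qk-KO, without overlap, and changed by -1.05 ± 0.14 (adjusted p = 0.00165). Lama4, an alpha chain of endothelial laminin, had values of 9.23, 8.56 and 9.26 for WT and 7.77, 8.44 and 8.65 for Qk-KO, and WT replicate 2 lay inside the Qk-KO range. Its change of -0.73 ± 0.27 (adjusted p = 0.0761) was not called here. The authors' deposited table called it (adjusted p = 0.0394), and in Qk-KO replicate 1 alone the adjusted p was 0.0281.

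Among the beta chains, Lamb2, found at mature vessels and synapses, was the most abundant laminin chain per kilobase, with values of 12.12, 11.57 and 11.75 for WT and 10.62, 11.03 and 11.24 for Qk-KO. Groups did not overlap and the change was -0.85 ± 0.20 (adjusted p = 0.0153). Lamb2 lost its call when WT replicate 1 or 3 was left out (limma adjusted p = 0.0588 and 0.0508). Lamb1, the other widely used beta chain, had values of 8.51, 8.15 and 9.0 for WT and 7.04, 7.76 and 8.08 for Qk-KO. The groups did not overlap, yet its SE was the widest of the laminins and the change of -0.93 ± 0.30 (adjusted p = 0.0534) did not pass. It did pass in the authors' deposited table (adjusted p = 0.0181), in Qk-KO replicate 1 alone (limma, 0.0189) and with the replicate block (0.0284). Among gamma chains, Lamc1, which most laminins share, had values of 11.54, 11.49 and 11.54 for WT and 11.24, 11.34 and 11.36 for Qk-KO. Groups were apart but by little, and the change was -0.21 ± 0.10 (adjusted p = 0.141). Lamc3, a rarer gamma chain, had values of 10.28, 9.62 and 9.82 for WT and 8.65, 8.92 and 9.11 for Qk-KO and fell by 2.02-fold (-1.01 ± 0.20, adjusted p = 0.00748). Lama1 had a difference of -0.44 ± 0.18 (adjusted p = 0.108), with groups apart.

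The nidogens bridge laminin and collagen IV, and both fell. Nid1 had values of 9.83, 9.73 and 9.74 for WT and 8.56, 8.36 and 8.52 for Qk-KO. The spread within either group was far smaller than the distance between them, and the fall was 2.44-fold (-1.29 ± 0.12, adjusted p = 0.000267). Nid2 had values of 8.43, 8.25 and 8.71 for WT and 7.23, 7.31 and 7.67 for Qk-KO, again without overlap, and changed by -1.06 ± 0.18 (adjusted p = 0.00468). Overlapping annotation on chromosome 14 leaves 8.45% of the Nid2 exon bases shared with Rtraf. Hspg2, the heparan sulfate proteoglycan perlecan, had values of 11.88, 10.98 and 11.41 for WT and 11.35, 10.65 and 10.34 for Qk-KO. Qk-KO replicate 1 lay inside the WT range, and the change of -0.64 ± 0.30 (adjusted p = 0.137) did not pass. With the replicate block, which no label grounds, the limma adjusted p was 0.0318. Hspg2 also passed with sample number series as a term (0.0223) and when Qk-KO replicate 1 was left out (0.0250). It passed in no other setting.

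The 4 other soluble or matrix-bound proteins of this class also fell, with Fn1, Vtn and Igfbp7 above 0 when scaled by library size alone. Sparc, a collagen-binding protein of the basement membrane, had values of 12.81, 12.69 and 12.56 for WT and 11.35, 11.46 and 11.93 for Qk-KO. Qk-KO replicate 3 was the highest of its group and lay below every WT library, and the fall was 2.16-fold (-1.11 ± 0.17, adjusted p = 0.00246). Vtn, vitronectin, which brain pericytes secrete, had values of 11.34, 11.13 and 11.34 for WT and 10.22, 10.53 and 10.60 for Qk-KO, without overlap, and changed by -0.82 ± 0.14 (adjusted p = 0.00363). Fn1, fibronectin, a matrix glycoprotein of vessels and plasma, had values of 13.00, 12.43 and 12.69 for WT and 12.18, 11.67 and 12.18 for Qk-KO. The groups were close, and the change was -0.69 ± 0.20 (adjusted p = 0.0318). Fn1 lost its call when WT replicate 1 or 3 or else Qk-KO replicate 2 was left out (limma adjusted p = 0.111, 0.0911 and 0.111), and also with no filter on low values (0.0742), with ribosomal library type as a term (0.234) and in Qk-KO replicate 1 alone (0.151). Igfbp7, a secreted protein of vessel walls, changed by -0.62 ± 0.17 (adjusted p = 0.0293). Igfbp7 lost its call when WT replicate 1, 2 or 3 or else Qk-KO replicate 1 or 2 was left out (limma adjusted p = 0.0953, 0.0520, 0.0564, 0.0526 and 0.0986), and also with no filter on low values (0.0655), with the replicate block (0.05003) and with ribosomal library type as a term (0.0563).

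Of 7 mural cell genes 6 fell and none rose, beside 14.8% and 13.8% of all features. The median was -0.76, and Acta2, Myh11, Tagln and Higd1b were above 0 with library size alone. Pdgfrb, the receptor by which pericytes respond to endothelial PDGF-B, had values of 11.41, 11.29 and 11.46 for WT and 10.03, 10.07 and 10.12 for Qk-KO. The 3 values of each group lay close together, and the 2.48-fold fall had the smallest adjusted p of all members (-1.31 ± 0.10, adjusted p = 0.000151). Rgs5, an inhibitor of G protein signalling that marks pericytes, was the most abundant member per kilobase in WT, with log2 values of 13.27, 12.87 and 13.16 for WT and 12.07, 12.14 and 11.91 for Qk-KO. It fell by 2.08-fold (-1.06 ± 0.14, adjusted p = 0.00145), and the groups did not overlap. In Qk-KO replicate 1 alone the changes were -1.36 for Pdgfrb and -1.03 for Rgs5. Higd1b, a pericyte gene that encodes a mitochondrial protein, had values of 6.70, 6.71 and 6.89 for WT and 5.89, 6.16 and 6.27 for Qk-KO and changed by -0.66 ± 0.16 (adjusted p = 0.0201), also without overlap. Higd1b lost its call when WT replicate 1 or 3 or else Qk-KO replicate 2 was left out (limma adjusted p = 0.0513, 0.0710 and 0.0674).

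Genes of smooth muscle contraction in the same group fell too. Myh11, the smooth muscle myosin heavy chain, had values of 12.29, 12.10 and 12.10 for WT and 11.30, 11.15 and 11.54 for Qk-KO and changed by -0.83 ± 0.13 (adjusted p = 0.00325), without overlap. Acta2, smooth muscle actin, had values of 11.24, 11.16 and 11.18 for WT and 10.34, 10.56 and 10.83 for Qk-KO. The 3 WT values lay close together and above all Qk-KO values, and the change was -0.62 ± 0.14 (adjusted p = 0.0141). Acta2 lost its call when WT replicate 1 or 3 or else Qk-KO replicate 2 was left out (limma adjusted p = 0.0580, 0.0525 and 0.0547). Tagln, an actin-binding protein of smooth muscle, changed by -0.76 ± 0.21 (adjusted p = 0.0293). Tagln lost its call when WT replicate 1, 2 or 3 or else Qk-KO replicate 2 was left out (limma adjusted p = 0.0616, 0.0671, 0.108 and 0.0853), and also with no filter on low values (0.0684). Of the Tagln exon bases, 62.4% are shared with an antisense gene model, and since strand use is not given in the sources used here, its reads are uncertain. Anpep, an aminopeptidase of pericytes and fibroblasts, did not pass (-0.27 ± 0.28, adjusted p = 0.487), and its groups overlapped.

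The small leucine-rich proteoglycans, which bind collagen fibrils, all fell, with Dcn and Lum above 0 under library size alone. Bgn, biglycan, had values of 9.69, 9.74 and 9.98 for WT and 9.15, 8.13 and 8.30 for Qk-KO. Qk-KO replicate 1 lay nearest to WT but below it, and the fall was 2.43-fold (-1.28 ± 0.25, adjusted p = 0.00838). Bgn is X-linked, and its 2 libraries with low Xist, WT replicate 3 and Qk-KO replicate 2, were the highest of the WT and the lowest of the Qk-KO values. It kept the call when either of those libraries was left out. Dcn, decorin, had values of 7.94, 7.43 and 8.05 for WT and 6.74, 7.06 and 7.20 for Qk-KO, and Lum, lumican, had values of 5.16, 5.19 and 5.09 for WT and 4.26, 4.66 and 4.60 for Qk-KO. Neither gene's groups overlapped, and the changes were -0.81 ± 0.21 (adjusted p = 0.0243) and -0.64 ± 0.15 (adjusted p = 0.0169). The genes lie 47.0 kb apart on chromosome 10. Dcn lost its call when WT replicate 1 or 3 or else Qk-KO replicate 2 was left out (limma adjusted p = 0.0867, 0.0901 and 0.0682). Lum lost its call when WT replicate 1 was left out (limma adjusted p = 0.0528).

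Fibrillar collagens form the cables of connective tissue. Of 11, 10 were tested, 5 fell and none rose, beside 14.8% and 13.8% of all features. The median was -0.60, and Col11a2, Col27a1 and Col5a2 were above 0 with library size alone. Col1a1, a chain of the main fibroblast collagen, had values of 9.23, 8.62 and 9.74 for WT and 6.55, 7.79 and 7.61 for Qk-KO. Its Qk-KO replicate 1 lay well below the other Qk-KO libraries, which were themselves below WT, and the change was -1.88 ± 0.38 (adjusted p = 0.00866). Col1a2, its partner chain, had values of 9.60, 9.34 and 10.12 for WT and 8.06, 8.63 and 8.85 for Qk-KO and changed by -1.17 ± 0.25 (adjusted p = 0.0118), also without overlap. Col5a2, a chain that nucleates such fibrils, had values of 8.57, 8.21 and 8.45 for WT and 7.61, 7.87 and 7.92 for Qk-KO and changed by -0.61 ± 0.16 (adjusted p = 0.0234). Col5a2 lost its call when WT replicate 1 or 3 or else Qk-KO replicate 2 was left out (limma adjusted p = 0.0869, 0.0796 and 0.0668). Its neighbour Col3a1, 24.6 kb away and also a fibroblast collagen, had a difference of -0.59 ± 0.25 (adjusted p = 0.115), which did not pass. With the replicate block, which no label grounds, the limma adjusted p was 0.0469. Col3a1 also passed when WT replicate 2 was left out (0.0427), and in no other setting.

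Col11a2, best known from cartilage, was the fibrillar chain with the highest WT level per kilobase, with log2 values of 11.44, 11.55 and 11.83 for WT and 10.68, 10.85 and 10.91 for Qk-KO. Its groups did not overlap and it changed by -0.79 ± 0.13 (adjusted p = 0.00424). Col27a1 had values of 9.90, 9.29 and 9.65 for WT and 9.09, 8.98 and 8.84 for Qk-KO and changed by -0.64 ± 0.17 (adjusted p = 0.0259), with groups apart. Col27a1 lost its call when WT replicate 1 or 3 or else Qk-KO replicate 2 or 3 was left out (limma adjusted p = 0.0874, 0.0867, 0.0781 and 0.0527), and also with no filter on low values (0.0555), with ribosomal library type as a term (0.190) and in Qk-KO replicate 1 alone (0.193). Col5a3 differed most between libraries of a group, with values of 9.38, 8.71 and 9.24 for WT and 9.64, 7.72 and 10.02 for Qk-KO. Qk-KO replicate 2 lay below all other libraries and the other Qk-KO libraries above all WT libraries, and the change was 0.02 ± 0.53 (adjusted p = 0.983). Col2a1, Col5a1 and Col11a1 had differences of -0.33, -0.23 and -0.10, none of which passed.

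Collagen VI, a beaded-filament collagen found around cells, had no chain that fell. Of 6 chains 4 were tested, 1 rose and the median was 0.35. Col6a3 had values of 8.29, 8.38 and 8.45 for WT and 8.77, 9.47 and 8.97 for Qk-KO, and all Qk-KO libraries lay above WT, with a change of 0.70 ± 0.19 (adjusted p = 0.0268). Col6a3 lost its call when WT replicate 1, 2 or 3 or else Qk-KO replicate 2 was left out (limma adjusted p = 0.0903, 0.0712, 0.0689 and 0.0812), and also with no filter on low values (0.0562), with ribosomal library type as a term (0.275) and in Qk-KO replicate 1 alone (0.207). Col6a2 had values of 8.15, 7.66 and 7.96 for WT and 8.84, 8.10 and 9.001 for Qk-KO, where Qk-KO replicate 2 lay inside the WT range, and its change of 0.72 ± 0.25 (adjusted p = 0.0645) did not pass. It passed in the authors' deposited table (adjusted p = 0.0183), in Qk-KO replicate 1 alone (limma, 0.0428), with the replicate block (0.0238) and with libraries recentred by their medians (0.0469). Col6a1, which joins the same trimer, had values of 7.68, 6.71 and 7.29 for WT and 7.38, 7.01 and 7.32 for Qk-KO and did not pass (0.0076 ± 0.25, adjusted p = 0.985). Col6a6 had a difference of -0.13 and did not pass.

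Fibril-associated collagens decorate fibrils without forming them. Of 9 chains 7 were tested, 1 rose, none fell, and the median was -0.07. Col20a1, a little studied member, had values of 6.57, 6.83 and 7.14 for WT and 8.13, 8.17 and 8.29 for Qk-KO. Every Qk-KO library lay above every WT library, the rise was 2.55-fold (1.35 ± 0.18, adjusted p = 0.00133), and in Qk-KO replicate 1 alone it was 1.29. Col16a1 had values of 10.71, 10.24 and 10.09 for WT and 10.85, 11.04 and 10.70 for Qk-KO, where Qk-KO replicate 3 lay just under the highest WT value, and its change was 0.51 ± 0.18 (adjusted p = 0.0623). It passed with libraries recentred by their medians, at a limma adjusted p of 0.0494, and with library size alone (0.0391). It also passed when WT replicate 1 or else Qk-KO replicate 3 was left out (limma adjusted p = 0.0249 and 0.0480), and in no other setting. Col9a3, a cartilage collagen chain, had values of 10.84, 10.99 and 11.25 for WT and 10.16, 10.77 and 10.88 for Qk-KO and a difference of -0.43 ± 0.20 (adjusted p = 0.148), with overlapping groups. In Qk-KO replicate 1 alone its change was -0.87, with a limma adjusted p of 0.0186, and with the replicate block the adjusted p was 0.04995. Col14a1 (-0.86 ± 0.31, adjusted p = 0.0700) also passed with the block (limma adjusted p = 0.0190) and in Qk-KO replicate 1 alone (0.0212). Col12a1 had a difference of -0.42 ± 0.16 (adjusted p = 0.0881) with groups apart. Col9a1 and Col9a2 had differences of 0.03 and -0.07 and did not pass.

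Of the remaining collagens 1 fell. None of the 3 transmembrane collagens tested passed. Col23a1 had values of 7.66, 7.29 and 7.41 for WT and 7.01, 7.20 and 7.48 for Qk-KO and Col13a1 of 5.70, 5.77 and 6.09 for WT and 5.46, 5.21 and 5.59 for Qk-KO. The Col23a1 groups overlapped and the Col13a1 groups did not, and the changes were -0.23 ± 0.18 (adjusted p = 0.371) and -0.43 ± 0.17 (adjusted p = 0.0965). Col25a1 had a difference of -0.05. Among other collagens, the network-forming Col8a1 of large vessels fell, with values of 9.06, 9.08 and 9.58 for WT and 8.20, 8.38 and 8.87 for Qk-KO and a change of -0.75 ± 0.22 (adjusted p = 0.0334), but was above 0 with library size alone. Col8a1 lost its call when WT replicate 1, 2 or 3 or else Qk-KO replicate 1 or 2 was left out (limma adjusted p = 0.0632, 0.0609, 0.114, 0.0622 and 0.105), and also with no filter on low values (0.0734). Its partner Col8a2 had values of 8.93, 9.05 and 9.65 for WT and 8.39, 8.32 and 9.20 for Qk-KO. Qk-KO replicate 3 lay inside the WT range, and the change was -0.57 ± 0.28 (adjusted p = 0.151), which did not pass. With the replicate block, which no label grounds, the limma adjusted p was 0.0217. Col8a2 also passed when Qk-KO replicate 3 was left out (0.0213), and in no other setting. Col7a1 and Col28a1 had differences of -0.17 and 0.21, neither of which passed.

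Of the 4 integrin subunits 2 fell, 1 rose and 1 did not pass, and under library size alone the signs held, barely for Itga1 (-0.07) and Itga6 (-0.03). Itga1, an alpha subunit that binds collagen IV and laminin, had values of 10.32, 10.002 and 10.22 for WT and 8.81, 9.25 and 9.09 for Qk-KO. Groups did not overlap and the fall was 2.19-fold (-1.13 ± 0.15, adjusted p = 0.00147). Itga6, the alpha subunit of laminin receptors, had values of 11.05, 10.97 and 10.95 for WT and 9.75, 9.53 and 10.40 for Qk-KO. Qk-KO replicate 3 stood above the other Qk-KO libraries and below WT, and the change was -1.09 ± 0.21 (adjusted p = 0.00709). Itgb1, the common beta partner of both, had values of 12.06, 11.87 and 11.96 for WT and 11.99, 12.10 and 12.08 for Qk-KO, with overlapping groups and a change of 0.09 ± 0.11 (adjusted p = 0.539). Itgb4, which pairs with Itga6 alone and is known from epithelial hemidesmosomes, had values of 11.44, 11.70 and 11.54 for WT and 12.51, 12.41 and 12.13 for Qk-KO. All Qk-KO libraries lay above WT, and the rise was 1.72-fold (0.79 ± 0.14, adjusted p = 0.00482). In Qk-KO replicate 1 alone the changes were -1.23 for Itga6 and 0.95 for Itgb4. An overlapping gene model shares 7.66% of the Itgb4 exon bases.

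Genes whose proteins act together or mark the same cells were then compared within each library, which removes any scaling of whole libraries. The 18 pairs were chosen after values were seen. Itgb4 exceeded Itga6 by 0.40, 0.73 and 0.60 in WT and by 2.75, 2.87 and 1.73 in Qk-KO. The means were 0.58 ± 0.17 and 2.45 ± 0.63 (SD, 3 libraries each), a difference of 1.88. Itga1 minus Itgb1 went from a mean of -1.78 to -3.01, and Itga6 minus Itgb1 from -0.98 to -2.16. Both alpha subunits thus stood lower against the beta subunit they share in every Qk-KO library than in any WT library. Against Lamc1 the mean differences, Qk-KO minus WT, were -1.07 for Nid1, -0.82 for Lama5, -0.64 for Lamb2 and -0.34 for Lama2. Acta2 minus Pdgfrb went from a mean of -0.19 to 0.50, and Rgs5 minus Pdgfrb moved by 0.25 with overlapping groups.

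Several pairs of collagen chains also had differences that did not overlap between groups. Col4a1 minus Col4a2 went from 0.27 ± 0.06 to 0.57 ± 0.13 (SD, n = 3 libraries each), Col4a5 minus Col4a6 from 2.67 to 1.55, Col1a1 minus Col1a2 from -0.49 to -1.197 and Col6a2 minus Col6a1 from 0.70 to 1.41. The pairs Col4a3 with Col4a4, Col6a3 with Col6a1, Dcn with Lum, Col5a3 with Col5a1 and Col3a1 with Col5a2 overlapped between groups. In 12 of the 18 pairs the groups did not overlap, and each of those gave a 2-sided exact permutation p of 0.1, the smallest that 3 against 3 libraries allow, or 0.15 after Benjamini-Hochberg adjustment over the 18. A difference of this design cannot reach 0.05, and the others gave exact p-values of 0.2 to 0.9.

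**Figure D3:**
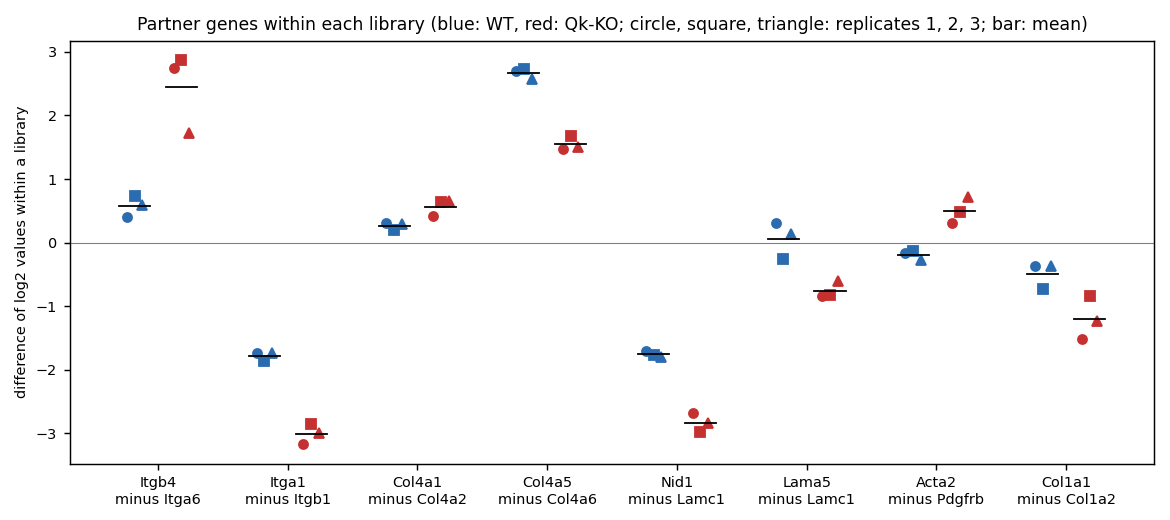
Difference of the regularized log2 values of partner genes within each library, for 8 of the 18 pairs. Blue is WT, red is Qk-KO, circles, squares and triangles are replicates 1, 2 and 3, and bars are means of 3 libraries. Groups are apart in all 8 pairs shown, which were taken from the 12 of 18 pairs whose groups did not overlap. Itgb4 minus Itga6 shows the widest gap, with means of 0.58 in WT and 2.45 in Qk-KO. A difference within a library does not depend on library scaling.

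Per kilobase of exon the order of the members also shifted. The back-transformed group means in WT were highest for Rgs5 at 1943, Sparc at 1747, Vtn at 1222, Igfbp7 at 1144 and Acta2 at 1066, ahead of Itgb1 at 979. In Qk-KO Itgb1 led at 1045, followed by Rgs5 at 928, Sparc at 820, Itgb4 at 748 and Igfbp7 at 743. Itgb4 thus went from rank 14 to rank 4, and Col1a1 from rank 29 to rank 44. Neighbouring ranks are not tested against each other, and Itgb1 itself did not pass between groups.

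The 10 members that were not tested had mean normalized counts between 0.176 and 13.98. They were mostly collagens, among them Col6a4, Col6a5, Col10a1, Col17a1, Col19a1, Col22a1, Col24a1 and Col26a1, and nothing is said of their direction. Of the 29 tested members that did not pass, 22 had negative changes, and Col12a1, Lamc1, Lamb1, Lama1 and Col13a1 had groups apart and lower while Col28a1 had groups apart and higher. Among the 34 that fell, Qk-KO replicate 1 was the lowest of its group in 23 and Qk-KO replicate 3 the highest in 24. WT replicate 2 was the lowest WT library in 22. Per library, the median member stood at 0.06, -0.15 and 0.07 from its WT mean in WT and at -0.81, -0.75 and -0.38 in Qk-KO. Just inside the threshold lay Col8a1, Fn1, Igfbp7 and Tagln, with adjusted p-values of 0.0293 to 0.0334, and just outside lay Lamb1, Col16a1 and Col6a2, with 0.0534 to 0.0645.

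Other genes of the matrix pathway were read from 6 lists, to be read against all tested features, of which 14.8% fell and 13.8% rose. Of 48 other matrix proteins 44 were tested, 24 fell and 5 rose, with a median of -0.67, and 14 of the 24 were above 0 with library size alone. The smallest adjusted p-values belonged to Bcan (-2.15 ± 0.16, adjusted p = 0.000127) and Ncan (-2.35 ± 0.26, adjusted p = 0.000649), chondroitin sulfate proteoglycans of the brain matrix, and to Sparcl1 (-1.94 ± 0.17, adjusted p = 0.000213), a secreted relative of Sparc that astrocytes make. Of 33 genes of collagen processing 32 were tested, 8 fell and 6 rose, with a median of -0.19, and 6 of the 8 were above 0 with library size alone. Serpinh1, the collagen chaperone of the endoplasmic reticulum, changed by -1.44 ± 0.17 (adjusted p = 0.000822). Adamts2, which trims the ends of procollagen, changed by 1.01 ± 0.12 (adjusted p = 0.000847), and Sec24d, a coat protein needed to export procollagen, by 0.91 ± 0.11 (adjusted p = 0.000847). The list thus held called genes in both directions, as did all tested features.

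Of 32 other integrins and matrix receptors 29 were tested, 10 fell and 2 rose, with a median of -0.33, and 6 of the 10 were above 0 with library size alone. Sdc2 (-1.60 ± 0.10, adjusted p = 8.73e-05) and Sdc3 (-1.197 ± 0.15, adjusted p = 0.00117) encode syndecans, heparan sulfate receptors, and Itga7 (-1.70 ± 0.20, adjusted p = 0.000823) a laminin-binding alpha subunit of muscle. Of 24 focal adhesion genes 23 were tested, 5 fell and 4 rose, beside 14.8% and 13.8% of all features. The median was -0.20, and 3 of the 5 that fell were above 0 with library size alone. Vcl, vinculin, which ties integrins to actin, changed by -1.500 ± 0.11 (adjusted p = 0.000113), and Parva, which joins integrin-linked kinase to actin, by -0.99 ± 0.15 (adjusted p = 0.00227), above 0 with library size alone. Ptk2, the focal adhesion kinase, rose (0.79 ± 0.11, adjusted p = 0.00200). Of 32 matrix proteases and inhibitors 30 were tested, 10 fell, 4 of them above 0 with library size alone, and 6 rose. The 3 with the smallest adjusted p were the secreted protease Htra1 (-1.83 ± 0.12, adjusted p = 9.32e-05) and the metalloproteinase inhibitors Timp4 (-1.80 ± 0.17, adjusted p = 0.000288) and Timp3 (-1.15 ± 0.13, adjusted p = 0.000643).

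Of 30 genes of signals to mural cells, 17 fell and none rose, beside 14.8% and 13.8% of all features. The median was -0.80, and 9 of the 17 were above 0 with library size alone. S1pr1, a sphingosine receptor of endothelium and astrocytes, changed by -2.30 ± 0.14 (adjusted p = 8.73e-05), Ednrb, an endothelin receptor that astrocytes also carry, by -2.23 ± 0.23 (adjusted p = 0.000450), and Notch3, the Notch receptor of mural cells, by -1.37 ± 0.11 (adjusted p = 0.000204). These 3 receptors fell in Qk-KO replicate 1 alone as well, by 2.43, 1.86 and 1.35.

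Markers of the cell types that such an isolate can hold were counted beside the members. Over all tested features 14.8% fell and 13.8% rose. All 10 oligodendrocyte markers were present, with summed back-transformed values of 545800 to 710900 in WT and 733800 to 829000 in Qk-KO, and 6 rose and none fell. The 12 mural markers outside the member list summed to 13250 to 15140 in WT and 8736 to 11400 in Qk-KO. Of the 11 tested, 5 fell and none rose, with a median of -0.47, and 3 of the 5 were above 0 with library size alone. Among them were Notch3, Heyl (-2.11 ± 0.18, adjusted p = 0.000233) and Abcc9 (-0.80 ± 0.14, adjusted p = 0.00442), the last being above 0 there. Kcnj8 (-0.17 ± 0.19, adjusted p = 0.514), Cspg4 (-0.44 ± 0.27, adjusted p = 0.254) and Mcam (0.02 ± 0.19, adjusted p = 0.935), which also mark mural cells, did not pass. All 14 endothelial markers fell, with a median of -0.86 and sums of 38390 to 54560 in WT and 23640 to 24600 in Qk-KO, but 11 of the 14 were above 0 with library size alone. Cdh5, the cadherin of endothelial junctions, changed by -1.15 ± 0.15 (adjusted p = 0.00129). Of 11 tested fibroblast markers 3 fell, Ogn, Slc13a4 and Islr, all above 0 with library size alone, and none rose, with a median of -0.32 and sums of 2023 to 2720 in WT and 1582 to 2076 in Qk-KO. Ogn lost its call when WT replicate 1 or else Qk-KO replicate 2 was left out (limma adjusted p = 0.0544 and 0.0660), and also with ribosomal library type as a term (0.0731) and in Qk-KO replicate 1 alone (0.0918). Slc13a4 lost its call when WT replicate 1 or 3 or else Qk-KO replicate 1 or 2 was left out (limma adjusted p = 0.0863, 0.1, 0.0508 and 0.101), and also with no filter on low values (0.0570) and with ribosomal library type as a term (0.0514). Islr lost its call when WT replicate 1, 2 or 3 or else Qk-KO replicate 1 or 2 was left out (limma adjusted p = 0.0982, 0.0829, 0.102, 0.0626 and 0.153), and also with the replicate block (0.0547), sample number series as a term (0.0724), with ribosomal library type as a term (0.106) and in Qk-KO replicate 1 alone (0.104).

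Astrocyte markers moved most, with 10 of 11 lower, none higher, a median of -2.54 and sums of 129100 to 161400 in WT and 19170 to 30240 in Qk-KO. Microglia markers summed to 6712 to 10370 in WT and 15160 to 57610 in Qk-KO, with 4 of 9 higher and none lower. The shares over all tested features, for this and the following lists, were 13.8% higher and 14.8% lower. Of 7 choroid plexus markers 4 fell, 3 of them above 0 with library size alone, and none rose, and of 7 precursor markers 1 fell and none rose. Of 7 neuron markers 2 rose, Tubb3 and Slc17a7, and none fell, but in Qk-KO replicate 1 alone 1 rose and 1 fell. Tubb3 lost its call when WT replicate 1, 2 or 3 or else Qk-KO replicate 2 or 3 was left out (limma adjusted p = 0.119, 0.0617, 0.0997, 0.110 and 0.0625), and also with no filter on low values (0.0889), with ribosomal library type as a term (0.354) and in Qk-KO replicate 1 alone (0.373). Slc17a7 lost its call when Qk-KO replicate 2 was left out (limma adjusted p = 0.0523). No marker of these lists had a mean normalized count of 0. The part of these cell types in the changes of the members was not tested.

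**Figure D4:**
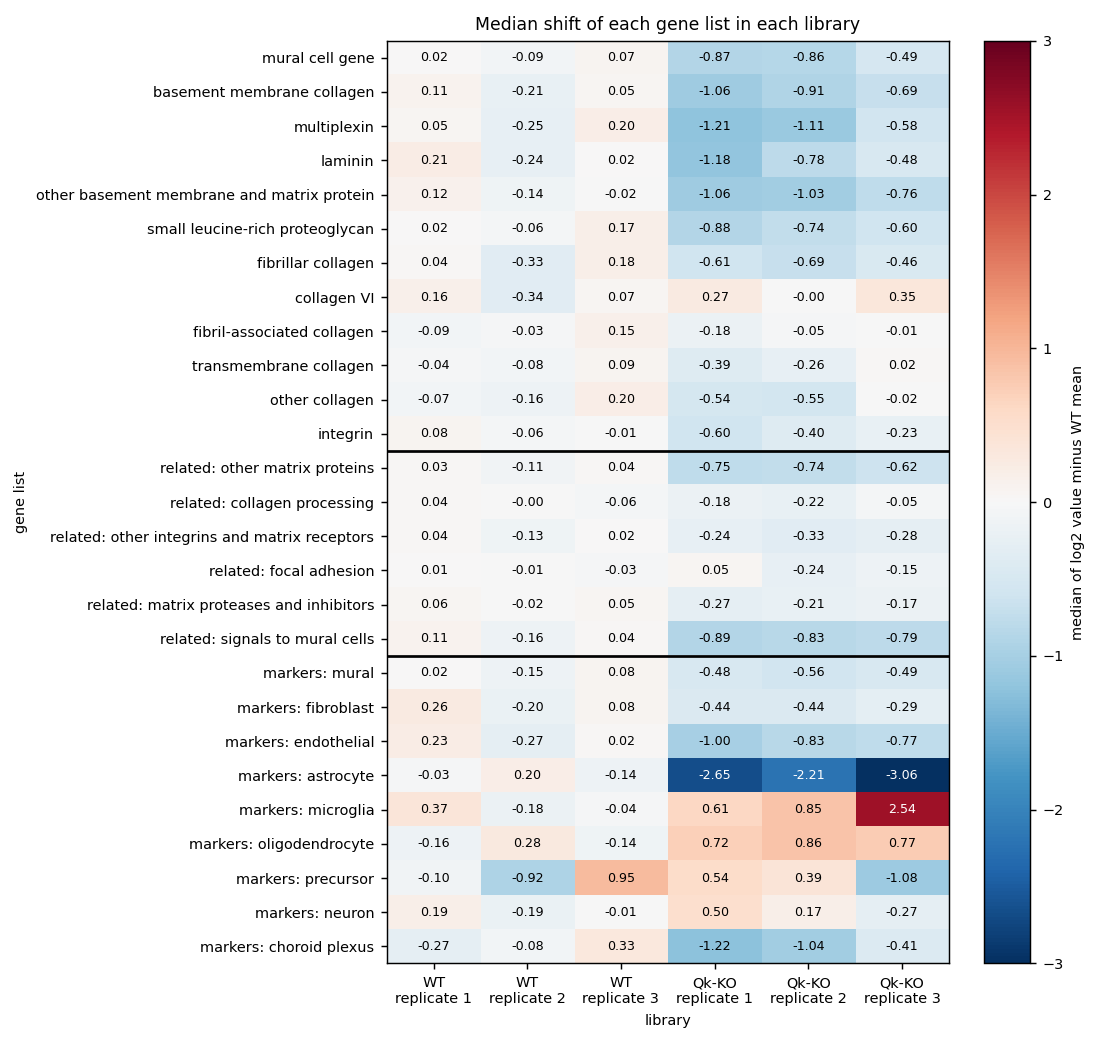
Median, over the tested genes of each list, of the log2 value minus the WT mean of the gene, in each library. Columns are libraries, rows are the member groups by role, the related lists and the marker lists, and color runs from blue (lower than the WT mean) to red (higher). Basement membrane collagens stand at -1.06, -0.91 and -0.69 in the Qk-KO libraries, astrocyte markers at -2.65, -2.21 and -3.06. With library size alone the median feature moves from 0.03 to 1.09, and the groups shift up with it.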

How the data were processed

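Total RNA of 3 WT and 3 Qk-KO oligodendrocyte isolates was sequenced on Illumina instruments. The tools of the authors, per the submitters' processing notes, were TopHat2 2.0.14, featureCounts, FastQC and DESeq2, on the build mm10. The sources used here give no library strand, read length or annotation release. The authors deposited 1 table of 46983 features with a log2 value per library and no read counts. The authors' deposited values have the form of DESeq2's regularized log2, which shrinks low genes toward their mean, so folds of low genes are understated. The same deposited table gives the authors' mean normalized count, a signal over the 6 libraries, and their log2 fold change with its standard error, Wald score, p-value and adjusted p-value.

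A count model could not be the main test without counts. limma 3.58.1 (R 4.3.3, lmFit and eBayes with a mean-variance trend) was fitted to the log2 values of all 6 libraries without covariates. The 15153 features whose mean normalized count reached 20 were tested, p-values were adjusted by Benjamini-Hochberg over all of them, and an adjusted p under 0.05 was called. A mean of 20 stands for an estimated 8.94 to 12.3 reads in the 4 shallower libraries, and 83 and 75.6 reads in the deeper Qk-KO replicates, so low members are known less well in the former. These depths were recovered from the size factors implied by the values and are approximate. Simulated data with known changes were used to check the fit. They were independent normal draws with the same spread for a gene in every library. They held no difference in ribosomal share or depth, so the check does not cover those features of the libraries.

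Members, gene lists, markers and tests were chosen with earlier results of these data known. Values in every library are given for the 30 called members with the smallest adjusted p and for the most abundant pair in each role. From each related list up to 3 called genes are named by adjusted p. Values outside this rule (Hspg2, Lama4, Lamb1, Col4a6, Col5a3, Col6a1 and markers that did not pass) were chosen after they were seen. Coordinates and exon lengths came from GENCODE M21 on mm10, which gave lengths for 15084 of the tested features, and promoter windows from RefSeq on GRCm38.p6, which held 51 of the 76 members. Over the members, 23 share exon bases with another gene, at most 8.45% except for Tagln. The replicate numbers were checked as a pairing. The alternatives were 11 other settings and each of the 6 libraries left out in turn. The values under each were recomputed for all features. An item is not reported here.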

Additional observations from a re-analysis of the deposited data

How the results depend on the processing

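The median member stayed below 0 in 10 of the 11 settings other than leaving out a library, but these are not separate checks. Leaving out the mean-variance trend or adding the replicate block cannot move the estimates, and the median was -0.64 in both. Library type as a term and Qk-KO replicate 1 alone give the same estimates, with a median of -0.81. Library size alone, with ribosomal RNA in its total, was the setting with a median above 0. There all tested features called numbered 2447 (against 4330), members that fell 0 (34), members that rose 5 (3), and the median member stood at 0.42 (-0.64). Values above 0 there, of the genes singled out by the naming rule that fell otherwise and of Col4a3, Tagln and Igfbp7, were Col4a1 0.12, Col4a3 0.30, Col11a2 0.27, Col27a1 0.42, Col5a2 0.45, Lamb2 0.21, Lama5 0.030, Lama2 0.50, Lamc3 0.045, Lama3 0.0067, Col18a1 0.25, Myh11 0.23, Acta2 0.44, Tagln 0.30, Higd1b 0.40, Fn1 0.36, Vtn 0.23, Igfbp7 0.44, Col8a1 0.30, Dcn 0.25, Lum 0.42, Parva 0.073, Abcc9 0.26, Ogn 0.34, Slc13a4 0.31, Islr 0.54, Kdr 0.053, Otx2 0.053 and Clic6 0.016. Over the related and marker lists together 61 of 109 genes that fell were above 0 there. With libraries recentred by their medians 5 members rose. All tested features called numbered 2258 with library type as a term and 2355 in Qk-KO replicate 1 alone. Fewer libraries bear on the contrast there, and the cause of the other shifts was not tested. Leaving out 1 library gave 2370 to 5633 for all tested features called, 21 to 37 members lower, 2 to 4 higher and medians of -0.78 to -0.53. Same-numbered replicates deviated with correlations of 0.104, 0.0046 and 0.082, and differently numbered ones with -0.121 to 0.0577. These values do not settle whether the numbers pair the libraries. With the replicate block 4345 features were called, 39 members fell and 4 rose, and Igfbp7 lost its call. Members at low counts are limited by depth in the 4 shallower libraries.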
